A study of Mus musculus with 12 samples.

Results

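Genes for mitochondrial ribosomal proteins are described here, taken as those whose symbol is Mrpl or Mrps followed by digits and, at most, 1 lower-case letter. The rule found 78 of the 54532 genes in the deposited count table, and 77 of them passed the filter on low counts. Large-subunit proteins account for 51 of the 78 genes and small-subunit proteins for 26. By their current structural names Mrps30 (mL65) and Mrps18a (mL66) belong to the large subunit and were counted there. Mrps36 was kept apart in the counts by subunit, because its protein is now assigned to the 2-oxoglutarate dehydrogenase complex. It is included in the counts and sums over all members. Another 5 rows of the table carry pseudogene symbols of the same family and were not counted as members.

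These proteins are encoded in the nucleus, made in the cytosol and imported into mitochondria, where they assemble with the rRNAs of the mitochondrial genome into the ribosome of the organelle. That ribosome translates the mitochondrial mRNAs, all of which encode subunits of the respiratory chain and the ATP synthase. Its large subunit holds the peptidyl transferase centre and the exit tunnel, and its small subunit holds the decoding centre. Many of its proteins have counterparts in the bacterial ribosome, and others are found in the mitochondrial ribosome only. In macrophages, mitochondrial respiration is known to vary with the activation state.

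The study set tumour-associated macrophages (TAMs) that had taken up a fluorescent nanoparticle against TAMs from the same tumours that had not. All 6 mice bore gliomas, had the labelled genotype Ntv-a_Ink4a/Arf_KO and had received rhodamine-labelled PFCE nanoparticles into the vein 24 hours before the tumour was taken. Rhodamine-positive and rhodamine-negative cells (6 libraries each) were sorted through the same gate, CD45+, CD11b+ and Ly6C-, with more than 2000 cells per sort. Mice 1 to 4 were labelled male and mice 5 and 6 female, and the same batch label applied to all 12 libraries. Both groups therefore shared the tumour, the genotype and the injection, and no uninjected mouse was among these libraries. Ntv-a names a mouse line in which the nestin promoter drives the receptor for an avian retrovirus, and Ink4a/Arf is a tumour suppressor locus. Neither the age of the mice nor the way the tumours were started is given in the sources used here.

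Libraries held 13073189 to 17379314 counts, and the members together took 0.291% to 0.389% of the counts in rhodamine-positive sorts and 0.260% to 0.348% in rhodamine-negative sorts. Levels are given as CPM, corrected for library size with the TMM factors of edgeR. Of 10 macrophage markers, 7 were higher and 1 was lower in rhodamine-positive sorts. Their summed level was 26562 to 31410 CPM in rhodamine-positive sorts and 10697 to 25367 CPM in rhodamine-negative sorts, high in both. The list includes Ptprc and Itgam, the genes of the proteins that the gate required. A high sum therefore does not by itself show the cell type. Of 8 dendritic cell markers, 7 were lower, with a summed level of 378 to 640 CPM in rhodamine-positive sorts and 784 to 1587 CPM in rhodamine-negative sorts. The rhodamine-negative library of mouse 5 stood apart. Its macrophage markers summed to 10697 CPM, against 20005 to 25367 CPM in the other 5 rhodamine-negative libraries. It held the most NK cell, neutrophil, monocyte, dendritic cell and basophil marker RNA of them, and 8745 CPM of Lars2, a mitochondrial tRNA synthetase gene. The 17 cell cycle genes were all higher, at 1088 to 1608 CPM in sum in rhodamine-positive sorts and 797 to 960 CPM in rhodamine-negative sorts. In sorted bulk RNA, a change in the share of a cell type and a change in RNA per cell cannot be told apart.

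Promoters of 3 members that rose in rhodamine-positive sorts are shown first, because nuclear genes for mitochondrial proteins are known targets of the factors NRF1, the ETS protein GABPA and YY1. All 3 hold a match to a searched motif, while the promoters of Mrps36, Mrpl28, Mrps14 and Mrps2, which also rose, hold none. Each promoter shown runs from 250 bases before to 50 bases after the RefSeq start on GRCm38.p6, read 5′ to 3′ on the strand of the gene, with matches to the searched motifs in capitals. Mrpl12 lies on the plus strand (chr11:120484387-120484686), and its capitals mark an NRF1 motif read on the opposite strand. Mrps22 lies on the minus strand (chr9:98601630-98601929), and its capitals mark an ETS motif. Mrps18a lies on the plus strand (chr17:46110754-46111053), and its capitals mark an ETS motif and, downstream of it, a YY1 motif.
Mrpl12: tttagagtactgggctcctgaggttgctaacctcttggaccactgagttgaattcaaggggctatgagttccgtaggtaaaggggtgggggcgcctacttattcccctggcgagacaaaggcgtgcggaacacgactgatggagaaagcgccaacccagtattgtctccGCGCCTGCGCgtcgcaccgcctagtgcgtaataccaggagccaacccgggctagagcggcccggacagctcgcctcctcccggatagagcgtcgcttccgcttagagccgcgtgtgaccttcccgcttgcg
Mrps22: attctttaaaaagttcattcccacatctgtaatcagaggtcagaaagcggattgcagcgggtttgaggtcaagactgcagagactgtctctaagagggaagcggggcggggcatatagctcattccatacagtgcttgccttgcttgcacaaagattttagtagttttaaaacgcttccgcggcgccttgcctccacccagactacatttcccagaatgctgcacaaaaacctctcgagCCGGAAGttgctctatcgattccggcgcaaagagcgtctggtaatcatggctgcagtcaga
Mrps18a: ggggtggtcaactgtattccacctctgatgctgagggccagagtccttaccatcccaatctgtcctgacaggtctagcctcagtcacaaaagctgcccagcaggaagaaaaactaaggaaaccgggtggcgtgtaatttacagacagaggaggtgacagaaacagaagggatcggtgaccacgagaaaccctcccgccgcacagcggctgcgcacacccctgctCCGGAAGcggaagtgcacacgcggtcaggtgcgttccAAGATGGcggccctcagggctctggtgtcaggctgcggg

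A RefSeq promoter was matched for 69 of the 78 members. Several starts are listed for some genes, so that the 69 members had 75 windows (3 members with more than 1) and all 27025 genes 32851 windows of the same length, and a gene was counted when any of its windows held the motif. The ETS motif CCGGAAG, on either strand, was found for 26 of the 69 members (37.7%), against 9.93% of the 27025 genes. The 27025 are all genes with such a promoter, including genes that were not tested, and were not matched to the members for GC content. The NRF1 motif, GCGCA and GCGC with 1 base of any kind between them, was found for 13 (18.8%), against 5.19% of all genes. The YY1 motif AAGATGG was found for 13 as well (18.8%), against 7.28% of all genes. For the E-box CACGTG, a motif that MYC binds, the shares were 7.25% of members (5) and 8.09% of all genes. None of the 4 motifs contains another. Among members tested and with a promoter, 14 of the 29 that rose (48.3%) and 11 of the 39 that did not pass the test (28.2%) had the ETS motif. In the same order the shares were 17.2% and 20.5% for the NRF1 motif, 20.69% and 17.95% for YY1, and 6.90% and 7.69% for the E-box. The difference between these shares was not tested for any motif. A motif match is a description of these letters and not a binding site.

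RNA of the mitochondrial ribosomal protein genes was more abundant in rhodamine-positive sorts. The summed level of the 78 genes was 3148 to 4030 CPM in rhodamine-positive sorts (3604 ± 280, SD, n = 6) and 2501 to 3406 CPM in rhodamine-negative sorts (2945 ± 375, SD, n = 6). The ranges overlapped between mice, but the rhodamine-positive sort held the higher sum in each of the 6 mice. As a share of all counts without TMM scaling it was higher in 5 of the 6 mice, but mouse 4 was nearly level. Mouse 4 had 0.3411% in the rhodamine-positive sort and 0.3407% in the rhodamine-negative sort. Mouse 1 had 0.343% and 0.348% in the same order. The TMM factors were 0.923 to 0.981 in rhodamine-positive sorts and 1.02 to 1.14 in rhodamine-negative sorts. They thus did not overlap between the groups.

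Mouse by mouse, the sums differed more in some animals than in others. Mouse 1 had 3646 CPM in its rhodamine-positive sort and 3406 CPM in its rhodamine-negative sort, a ratio of 1.07. Mouse 4 had 3603 and 3292 CPM in the same order, a ratio of 1.09. Ratios were 1.26 in mouse 2 and 1.21 in mouse 3. Both female mice gave the highest ratios, 1.41 in mouse 5 (3578 CPM in the rhodamine-positive sort, 2529 CPM in the rhodamine-negative sort) and 1.36 in mouse 6 (4030 and 2963 CPM in the same order). The ratio of mouse 5 rests on the rhodamine-negative library that stood apart in its markers. Without mouse 5 the members' median log2 fold change was 0.25, and over all 6 mice it was 0.29.

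**Figure D1:**
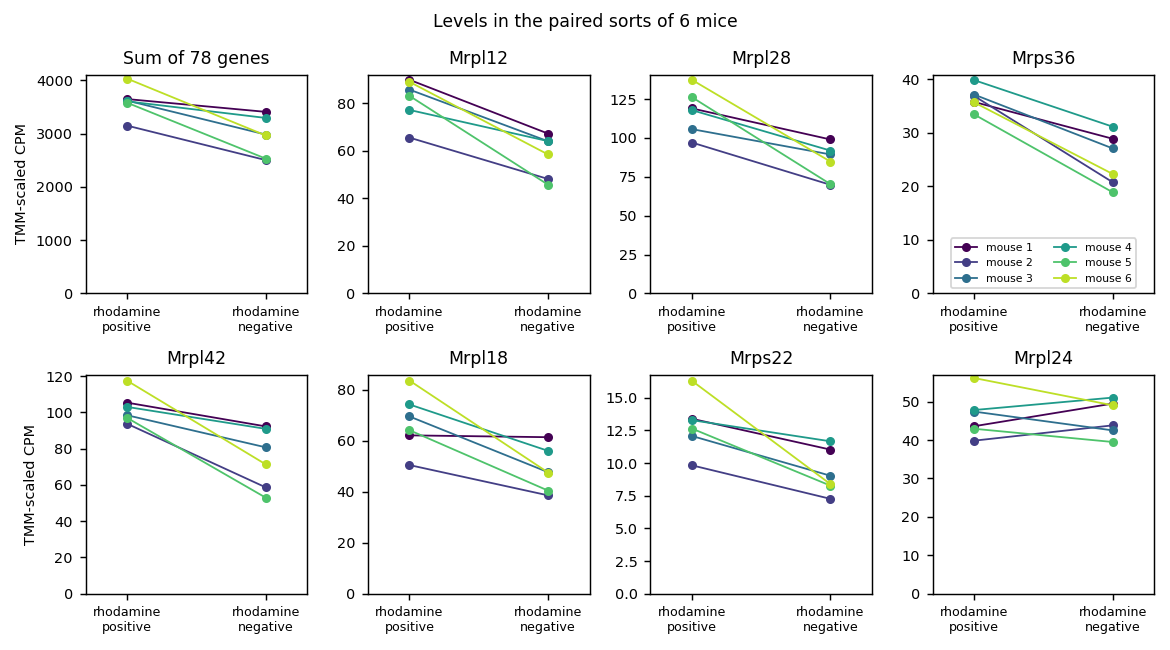
TMM-scaled CPM (vertical axes, linear, from 0) of the sum of the 78 genes and of 7 single members in the rhodamine-positive (left) and rhodamine-negative (right) sort of each mouse, with 1 line per mouse. The sum is higher in the rhodamine-positive sort of all 6 mice, while Mrpl24 is higher in 3 of 6.

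In the test across all genes, 34 of the 77 members tested (44.2%) were higher in rhodamine-positive sorts at an adjusted p under 0.05 (quasi-likelihood test of edgeR, both sorts of a mouse paired, p-values adjusted by the Benjamini-Hochberg method over 15014 genes). Among all genes tested, 13% were higher by the same rule. No member was lower, against 13.2% of all genes. That count of 0 lower was also 0 with DESeq2, 0 with limma-voom and 0 at an unadjusted p under 0.05 in edgeR, where 53 members were higher. The median log2 fold change, rhodamine-positive minus rhodamine-negative, was 0.29 (1.23-fold) over the members and -0.02 over all genes. The middle 50% of the members lay between 0.21 and 0.36, and 75 of the 77 were above 0.

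Changes of single members were small. The 34 that rose had log2 fold changes of 0.28 to 0.57, which is 1.21-fold to 1.49-fold, with adjusted p (edgeR) from 0.00255 to 0.0476. Of these, 28 were higher in the rhodamine-positive sort of 6 of 6 mice and 6 in 5 of 6. Another 6 that did not pass the test were also higher in all 6 mice, so that 34 members were, against 14.2% of all genes tested. In 7 members the lowest rhodamine-positive library lay above the highest rhodamine-negative library, against 4.14% of all genes. These were Mrps36, Mrpl42, Mrps2, Mrps26 and Mrpl10, which rose, and Mrps23 and Mrps17, whose adjusted p was 0.0667 and 0.0619 (edgeR).

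The number of members that passed depended on which mice and which scaling entered the test. Without mouse 3 it was 16 (20.8%, against 8.32% of all genes), without mouse 5 it was 22 (28.6%, against 10.6%) and without mouse 6 it was 14 (18.2%, against 9.10%). In the 4 male mice alone it was 4 of 77 (5.19%, against 6.64% of all genes). Without the pairing by mouse, 15 members rose (19.5%, against 8.46% of all genes), and in limma on the deposited log2 values 19 did (24.7%, against 11.7%). With library size as the scaling in place of TMM, 6 members rose (7.79%, against 5.70% of all genes). That scaling moved the median of all genes to -0.18 and that of the members from 0.29 to 0.14. With it, 5.70% of all genes were higher and 20.8% lower, and 64 of the 77 members were above 0 and 13 below.

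**Figure D2:**
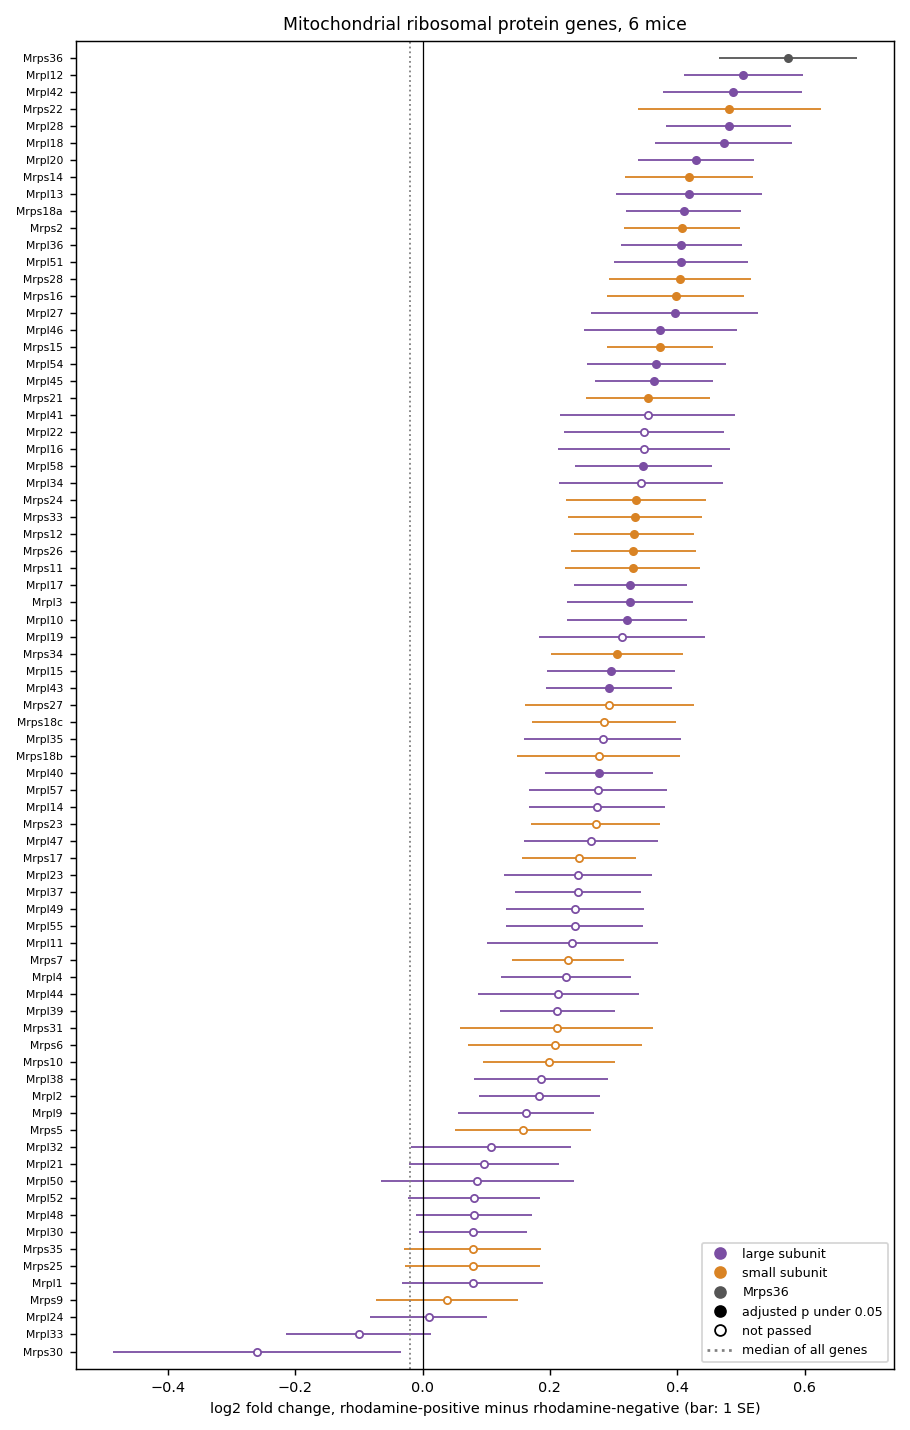
Log2 fold change, rhodamine-positive minus rhodamine-negative (horizontal axis, with 1 standard error), of the 77 members tested, ordered by size, with filled points for adjusted p under 0.05. Filled points run from 0.28 to 0.57, and Mrpl33 and Mrps30 lie below 0.

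Proteins of the stalk of the large subunit, which recruits translation factors to the ribosome, were led by Mrpl12. Mrpl12 (bL12m, ENSMUSG00000039640, chr11:120484613-120489065, plus strand) is the mitochondrial form of the bacterial stalk protein L7/L12 and is also known to bind mitochondrial RNA polymerase. Its lowest, median and highest level was 65.5, 84.3 and 89.8 CPM in rhodamine-positive sorts, against 45.7, 61.2 and 67.2 CPM in rhodamine-negative sorts. The groups overlapped only in that the lowest rhodamine-positive library (mouse 2) lay below the highest rhodamine-negative library (mouse 1). The log2 fold change was 0.50 ± 0.09 (SE, 6 of 6 mice, adjusted p = 0.00255, edgeR).

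Mrpl10 (uL10m), which anchors Mrpl12 at the base of the stalk, had 43.3, 43.8 and 50.04 CPM as its lowest, median and highest level in rhodamine-positive sorts, against 29.97, 37.1 and 40.7 CPM in rhodamine-negative sorts. These ranges did not overlap. Its log2 fold change was 0.32 ± 0.09 (adjusted p = 0.0266, edgeR). For Mrpl11 (uL11m), the other protein of the stalk base, the levels were 21.5, 33.7 and 39.4 CPM in rhodamine-positive sorts and 21.1, 27.8 and 34.2 CPM in rhodamine-negative sorts. Mrpl11 was higher in 3 of 6 mice and did not pass the test (0.23 ± 0.13, adjusted p = 0.219, edgeR).

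Of the members of the large subunit tested, 20 of 50 rose (40%, against 13% of all genes), with a median log2 fold change of 0.28. Mrpl28 (bL28m, ENSMUSG00000024181, chr17:26123500-26126613, plus strand) had the highest CPM of all members. It stood at 97.0, 118 and 137 CPM (lowest, median, highest) in rhodamine-positive sorts, against 69.8, 87.0 and 99.0 CPM in rhodamine-negative sorts, and was higher in 6 of 6 mice. Its log2 fold change was 0.48 ± 0.10 (adjusted p = 0.00438, edgeR). Mrpl18 (uL18m), whose bacterial relative binds 5S rRNA, stood at 50.4, 66.8 and 83.5 CPM in rhodamine-positive sorts, against 38.5, 47.6 and 61.3 CPM in rhodamine-negative sorts. In mouse 1 the sorts were close, with 62.1 CPM in the rhodamine-positive sort and 61.3 CPM in the rhodamine-negative sort, and the log2 fold change over the 6 mice was 0.47 ± 0.11 (adjusted p = 0.00765, edgeR).

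Mrpl20 (bL20m), whose bacterial relative joins early in the assembly of the large subunit, stood at 62.1, 74.3 and 80.0 CPM in rhodamine-positive sorts and 42.6, 52.3 and 68.3 CPM in rhodamine-negative sorts (0.43 ± 0.09, adjusted p = 0.00547, edgeR). It was higher in all 6 mice although the groups overlapped. Mrpl13 (uL13m) rose with 5 of 6 mice higher (0.42 ± 0.11, adjusted p = 0.0192, edgeR). Its exception was mouse 4, with 38.1 CPM in the rhodamine-positive sort and 40.3 CPM in the rhodamine-negative sort. Mrpl17 (bL17m) had the second highest CPM of the set, with means of 110 ± 8.24 CPM in rhodamine-positive sorts and 88.2 ± 13.9 CPM in rhodamine-negative sorts (SD, n = 6 each), and rose by a log2 fold change of 0.33 ± 0.09. Mrpl4 (uL4m), a protein of the exit tunnel, was also among the 4 highest by CPM but did not pass the test (0.23 ± 0.10, adjusted p = 0.125, edgeR).

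Among large-subunit proteins whose structural name begins with m, the prefix for proteins named as specific to the mitochondrial ribosome, Mrpl42 had the largest increase. Mrpl42 (mL42, ENSMUSG00000062981, chr10:95480805-95501940, minus strand) stood at 93.7, 101 and 117 CPM in rhodamine-positive sorts and 53.0, 76.0 and 92.3 CPM in rhodamine-negative sorts. Its groups did not overlap, and the log2 fold change was 0.49 ± 0.11 (adjusted p = 0.00743, edgeR). Mrps18a (mL66), which is related to a small-subunit protein of bacteria and whose promoter is shown above, stood at 58.4, 68.7 and 90.0 CPM in rhodamine-positive sorts and 42.9, 55.5 and 60.5 CPM in rhodamine-negative sorts (0.41 ± 0.09, 6 of 6 mice, adjusted p = 0.00669, edgeR).

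Several members with this prefix have a known activity or relatives outside the ribosome. Mrpl58 (mL62), a peptidyl-tRNA hydrolase that frees stalled peptides and is also built into the ribosome, rose (0.35 ± 0.11, adjusted p = 0.0337, edgeR). Mrpl45 (mL45), which attaches the ribosome to the inner membrane, rose as well (0.36 ± 0.09, adjusted p = 0.0140, edgeR). Mrpl44 (mL44), a protein related to ribonuclease III, stood at 19.3, 25.7 and 31.9 CPM in rhodamine-positive sorts and 16.2, 24.0 and 25.9 CPM in rhodamine-negative sorts and did not pass the test (adjusted p = 0.234, edgeR).

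Of the 26 small-subunit members, 13 rose (50%, against 13% of all genes), with a median log2 fold change of 0.30. Mrps22 (mS22, ENSMUSG00000032459, chr9:98588730-98601660, minus strand), mutated in a human mitochondrial disease, was a low member, at 9.83, 12.97 and 16.3 CPM in rhodamine-positive sorts and 7.26, 8.71 and 11.7 CPM in rhodamine-negative sorts. It was higher in 6 of 6 mice, with the largest difference in mouse 6 (16.3 CPM in the rhodamine-positive sort, 8.39 CPM in the rhodamine-negative sort). Its log2 fold change was 0.48 ± 0.14 (adjusted p = 0.0285, edgeR). Mrps14 (uS14m) stood at 65.3, 77.5 and 86.3 CPM in rhodamine-positive sorts and 46.3, 53.3 and 74.7 CPM in rhodamine-negative sorts (0.42 ± 0.10, adjusted p = 0.0102, edgeR), and was higher in all 6 mice.

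Mrps12 (uS12m), a protein of the decoding centre, rose by less (0.33 ± 0.09, adjusted p = 0.0234, edgeR). Mrps2 (uS2m) was 1 of the members whose groups did not overlap, with 41.1 to 49.2 CPM in rhodamine-positive sorts and 30.6 to 39.7 CPM in rhodamine-negative sorts. Mrps26 (mS26) was another, with 37.2 to 42.9 CPM in rhodamine-positive sorts and 26.7 to 35.6 CPM in rhodamine-negative sorts. Mrps17 (uS17m) had no overlap either (50.5 to 54.8 CPM in rhodamine-positive sorts, 37.8 to 48.5 CPM in rhodamine-negative sorts), yet its log2 fold change of 0.25 ± 0.09 fell short of the threshold.

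Mrps36 (ENSMUSG00000061474, chr13:100735955-100744659, minus strand) had the largest increase of the set, although its protein is now placed in the 2-oxoglutarate dehydrogenase complex of the citric acid cycle. It stood at 33.5, 36.3 and 39.9 CPM in rhodamine-positive sorts and 18.9, 24.7 and 31.2 CPM in rhodamine-negative sorts. The groups did not overlap. The log2 fold change was 0.57 ± 0.11 (6 of 6 mice, adjusted p = 0.00285, edgeR). Mrps36, Mrpl12 and Mrpl28 were the members that rose under every one of the 17 alternative settings run.

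Per kilobase of exon (FPKM from the TMM-scaled CPM), which allows levels to be compared between genes, the members spanned 1.98 to 87.3 with a median of 15.4. The small-subunit protein Mrps21 (bS21m) was highest, with a mean of 97.5 FPKM in rhodamine-positive sorts and 77.1 FPKM in rhodamine-negative sorts. Next were Mrpl28 (84.9 FPKM in rhodamine-positive sorts, 61.0 in rhodamine-negative sorts), Mrpl54 (81.3 and 63.5 FPKM in the same order) and Mrpl36 (66.0 and 50.5 FPKM in the same order). All 4 rose, and in CPM Mrps21 had a log2 fold change of 0.35 ± 0.10 (adjusted p = 0.0198, edgeR), Mrpl54 of 0.37 ± 0.11 (adjusted p = 0.0282) and Mrpl36 of 0.41 ± 0.10 (adjusted p = 0.00903). Exon length here is the union over annotated transcripts, so a gene with long rarely used exons is placed too low.

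The 43 members that did not pass ranged from -0.26 to 0.35 in log2 fold change. Of these, 41 were above 0 and 13 had an adjusted p under 0.1. Closest to the threshold from inside were Mrpl15 (adjusted p = 0.0469) and Mrps34 (0.0476), and from outside Mrpl22 (0.0599) and Mrps17 (0.0619), all by edgeR. Mrpl24 (uL24m), at the rim of the exit tunnel, had the smallest change, with 39.8, 45.5 and 56.1 CPM in rhodamine-positive sorts and 39.5, 46.4 and 51.0 CPM in rhodamine-negative sorts (0.01 ± 0.09). Mrps9 (uS9m, 0.04 ± 0.11), Mrpl1 (uL1m, 0.08 ± 0.11) and Mrps25 (mS25, 0.08 ± 0.11) followed. A change that misses the threshold is not shown to be absent.

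Mrpl33 (bL33m) and Mrps30 (mL65) were the members below 0, and neither passed. Mrpl33 stood at 33.0, 40.5 and 44.0 CPM in rhodamine-positive sorts and 35.5, 43.5 and 47.9 CPM in rhodamine-negative sorts (-0.10 ± 0.11, adjusted p = 0.548, edgeR). Mrps30 was the lowest member per kilobase and the most variable, at 5.38, 10.6 and 19.4 CPM in rhodamine-positive sorts and 6.01, 14.7 and 23.0 CPM in rhodamine-negative sorts. It was higher in the rhodamine-positive sort of 1 of 6 mice (-0.26 ± 0.23, adjusted p = 0.425, edgeR), and its lowest library held 68 counts.

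Mrpl53 (mL53, chr6:83109040-83109939, plus strand) was not tested, since it had 0 counts in all 12 libraries. A count of 0 allows up to 3 counts per library, or 0.179 to 0.238 CPM, for counting error only. Another annotated gene on the same strand, Gm42688, covers 88% of its exons and had 15 to 32 counts per library. The deposited values therefore do not show whether Mrpl53 was expressed. For Mrpl19, Mrpl24, Mrpl43, Mrpl47, Mrps18b, Mrps18c, Mrps25, Mrps27 and Mrps34, too, more than 20% of the exon bases are shared with other genes. Of these, Mrpl43 (33.4%, opposite strand) and Mrps34 rose. Mrps34 shares 77.8% of its exon bases, 63.4% with Mapk8ip3 on the opposite strand and 37% with Nme3 on the same strand. Mrps25 shares 69.8% with Nr2c2 on the opposite strand. The strand setting of the counting is not given in the sources used here, so reads from the shared bases cannot be told apart from those of the neighbours, and for same-strand overlaps no strand setting would tell them apart.

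The difference was not even over the mice. In the rhodamine-positive sort, 54, 67, 70 and 56 of the 77 members were higher in male mice 1 to 4, and 73 and 74 in female mice 5 and 6, while 48.3% to 51.9% of all genes were. The median log2 difference of the members was 0.08, 0.28, 0.28 and 0.10 in mice 1 to 4 and 0.54 and 0.42 in mice 5 and 6. A test of the difference between the sexes in the same edgeR model, added after the values were seen, called 0 of the 77 members (lowest adjusted p = 0.562) and 0 of all genes. At an unadjusted p under 0.05 it named 14 members (18.2%), against 7.73% of all genes. In 71 of the 77 the paired difference was larger in females, and the share over all genes was not counted. The median of the fitted female minus male difference was 0.25 over the members and 0.03 over all genes. Only 2 female mice stand behind these values, and mouse 5, whose rhodamine-negative library stood apart, is among them.

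**Figure D3:**
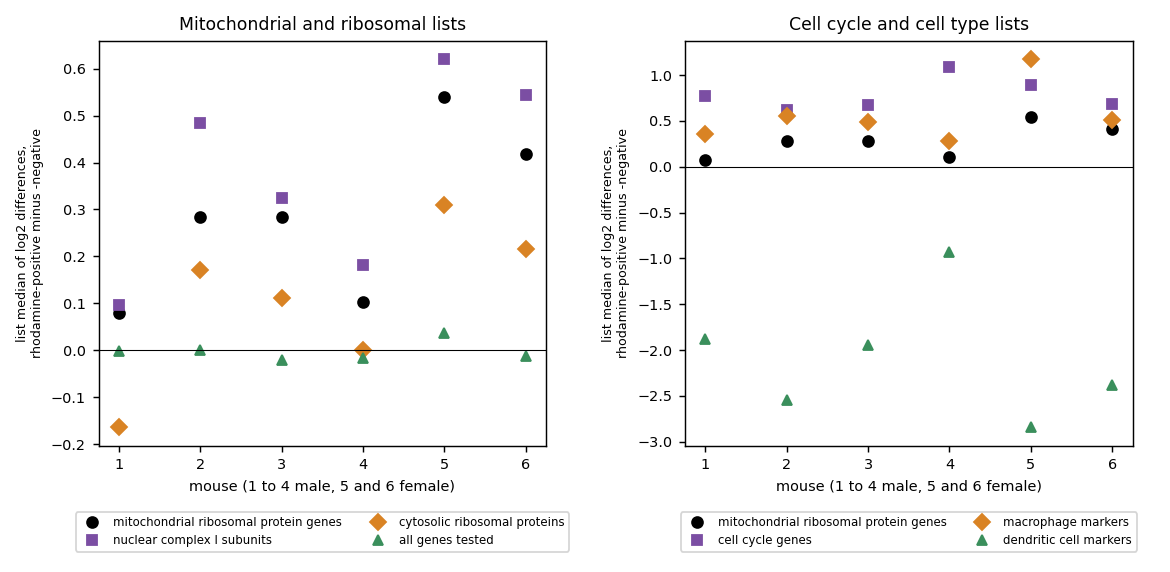
Median log2 difference, rhodamine-positive minus rhodamine-negative (vertical axis), of each gene list in each mouse (horizontal axis). Mitochondrial ribosomal protein genes lie at 0.08 and 0.10 in mice 1 and 4 and at 0.54 and 0.42 in mice 5 and 6, complex I subunits lie above them in each mouse, and dendritic cell markers lie below 0 in each mouse.

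Markers of cycling cells and of other cell types moved with the same groups. The median log2 difference of the 17 cell cycle genes was 0.77, 0.62, 0.67, 1.09, 0.89 and 0.68 in mice 1 to 6, and that of the 8 dendritic cell markers was -1.88, -2.54, -1.95, -0.93, -2.84 and -2.38. Macrophage markers had medians of 0.36, 0.56, 0.49, 0.28, 1.17 and 0.51 in mice 1 to 6. The medians of the members in the same order were 0.08, 0.28, 0.28, 0.10, 0.54 and 0.42. Of 5 monocyte markers 3 were lower, with a summed level of 32.1 to 79.6 CPM in rhodamine-positive sorts and 228 to 572 CPM in rhodamine-negative sorts. Summed levels of basophil and mast cell markers (3 of 3 tested lower) were 0.187 to 20.5 CPM in rhodamine-positive sorts and 5.58 to 404 CPM in rhodamine-negative sorts. Those of glioma and oligodendrocyte markers (4 of 7 lower) were 43.3 to 131 CPM in rhodamine-positive sorts and 94.8 to 147 CPM in rhodamine-negative sorts. No macrophage, dendritic cell, monocyte or cell cycle marker was at 0 in every library of a group. The 1 NK cell marker tested, Klrd1, was lower (log2 fold change -3.09, lower in 6 of 6 mice), and the NK cell list summed to 2.14 to 10.9 CPM in rhodamine-positive sorts and 40.1 to 86.7 CPM in rhodamine-negative sorts. The 1 neutrophil marker tested, Cxcr2, was lower (-2.42), with sums of 0.560 to 4.83 CPM in rhodamine-positive sorts and 4.20 to 26.4 CPM in rhodamine-negative sorts. Of 2 astrocyte markers tested Aldoc was lower (-1.39), and Gfap was above 0 and did not pass (0.61). The astrocyte list summed to 4.29 to 14.9 CPM in rhodamine-positive sorts and 11.97 to 31.8 CPM in rhodamine-negative sorts. The 1 T cell marker tested, Cd4, went the other way (0.90, higher in 5 of 6 mice), with sums of 4.77 to 15.3 CPM in rhodamine-positive sorts and 3.99 to 7.98 CPM in rhodamine-negative sorts. The NK cell marker Ncr1 and the neutrophil marker Ly6g had 0 counts in every rhodamine-positive library. Of 3 B cell and 3 endothelial markers tested, none passed in edgeR, DESeq2 or limma-voom, and 1 of each list was lower at an unadjusted p under 0.05. Of 8 immediate early genes, known to be induced during cell isolation, 6 were lower. The part of each of these in the difference of the members was not tested.

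Mitoribosomal proteins that carry other symbols were counted apart, and 2 of 5 rose (40%, against 13% of all genes) and 0 fell (median log2 fold change 0.22). Of these 2, 1 is uncertain, since its exons share bases with those of another gene. The other was Chchd1, of the small subunit, which stood at 31.8, 38.7 and 48.2 CPM in rhodamine-positive sorts and 22.9, 30.9 and 34.4 CPM in rhodamine-negative sorts (0.37 ± 0.10, 6 of 6 mice, adjusted p = 0.0178, edgeR). Aurkaip1, Dap3 and Ptcd3, also of the small subunit, had log2 fold changes of 0.22, 0.22 and 0.11 and did not pass.

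Of 14 mitochondrial translation factors, 6 rose (42.9%, against 13% of all genes) and 0 fell (median 0.23). Elongation was represented by Tufm, the mitochondrial EF-Tu, with 76.2, 83.8 and 89.9 CPM in rhodamine-positive sorts and 57.7, 61.8 and 70.0 CPM in rhodamine-negative sorts (0.41 ± 0.08, adjusted p = 0.00421, edgeR). Its exchange factor Tsfm rose (0.41 ± 0.13), and so did the translocase Gfm1 (0.38 ± 0.09, adjusted p = 0.00870, edgeR). The recycling factor Mrrf (0.46 ± 0.14) and the mRNA-binding protein Lrpprc (0.47 ± 0.12) also rose. The remaining 1 of the 6 is uncertain for the same kind of exon overlap. Release factors Mtrf1 and Mtrf1l (-0.08 ± 0.15 and -0.52 ± 0.25) and the initiation factors Mtif2 and Mtif3 (-0.08 ± 0.12 and 0.27 ± 0.10) did not pass.

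Lists for other steps of mitochondrial gene expression had lower medians. The shares called were 7.69% higher and 3.85% lower among assembly factors, and 15% and 0% among genes for charging mitochondrial tRNAs. For mitochondrial DNA transcription and upkeep they were 0% and 9.09%, and over all genes tested 13% and 13.2%. Of 26 mitoribosome assembly factors, 2 rose and 1 fell (median 0.11). Those that rose were Rbfa, which binds the small subunit during its maturation (0.35 ± 0.11, adjusted p = 0.0326, edgeR), and Mpv17l2 (0.32 ± 0.10, adjusted p = 0.0366). Mterf3, which acts in large-subunit biogenesis, fell by 0.36 on the log2 scale (SE 0.11, lower in 6 of 6 mice, adjusted p = 0.0349, edgeR). Of 20 genes for charging mitochondrial tRNAs, 3 rose (Iars2, Gatb and Fars2, at 0.55, 0.44 and 0.31) and 0 fell, with a median of 0.08. Of 11 genes of mitochondrial DNA transcription and upkeep 0 rose and 1 fell, the polymerase subunit Polg2 (-0.53 ± 0.14, adjusted p = 0.0141, edgeR). The 0 higher calls there were also 0 with DESeq2 and limma-voom, and 2 at an unadjusted p under 0.05.

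RNAs read from the mitochondrial genome, which are the ribosome's own rRNAs and the mRNAs it translates, gave no call. Of 10 mitochondrial mRNAs tested 0 rose and 0 fell (median 0.25). DESeq2 and limma-voom also called 0, and 1 was higher at an unadjusted p under 0.05 in edgeR. That was mt-Nd1, a complex I subunit (0.36 ± 0.16, adjusted p = 0.122, edgeR). It stood at 953, 1324 and 1899 CPM in rhodamine-positive sorts and 560, 1157 and 1711 CPM in rhodamine-negative sorts. The mRNAs went different ways in different mice, with medians of 0.13, 0.85, 0.10, -0.61, 0.64 and 0.35 in mice 1 to 6. Both rRNAs, mt-Rnr1 (0.23 ± 0.17) and mt-Rnr2 (-0.03 ± 0.15), did not pass in edgeR, DESeq2 or limma-voom, nor at an unadjusted p under 0.05. They were measured in polyA-selected RNA, which limits what their level shows.

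**Figure D4:**
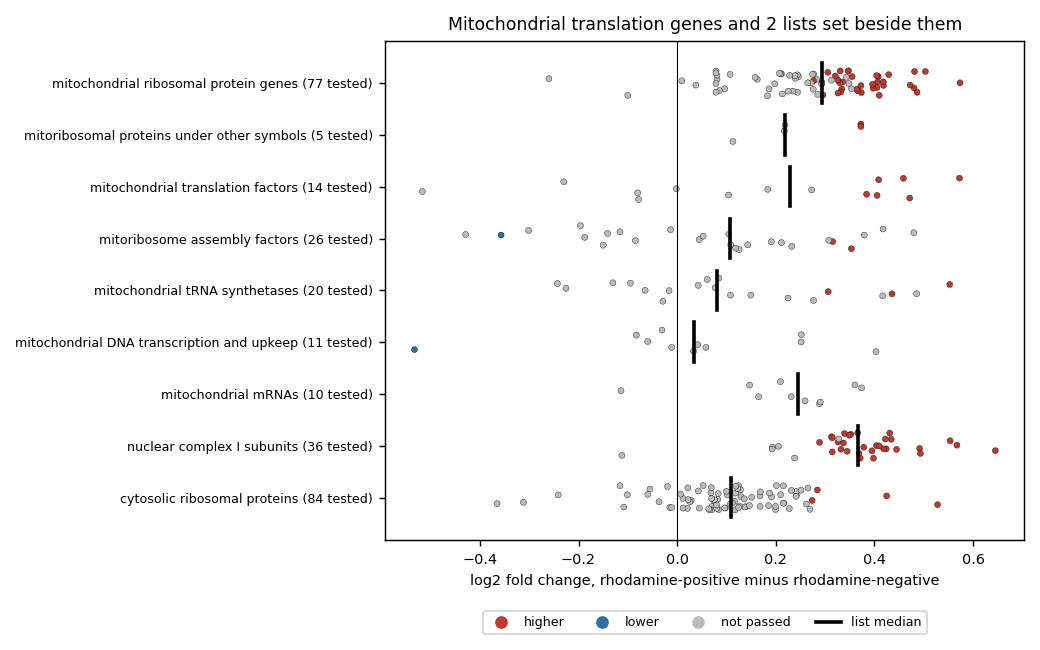
Log2 fold change, rhodamine-positive minus rhodamine-negative (horizontal axis), of each gene tested in the mitochondrial ribosomal protein genes and 8 other lists, with points coloured by call and a bar at each list's median. The medians run from 0.03 for mitochondrial DNA transcription and upkeep to 0.37 for nuclear complex I subunits, with 0.29 for the mitochondrial ribosomal protein genes.

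Set beside a nuclear-encoded part of the respiratory chain and the cytosolic ribosome, the members lay between the other two lists. Of 36 nuclear complex I subunits 30 rose and 0 fell (median 0.37), among them Ndufs5 (0.55 ± 0.10), Ndufa12 (0.57 ± 0.11) and Ndufa4 (0.65 ± 0.13). Of 84 cytosolic ribosomal protein genes 4 rose (Rps4l, Rpl38, Rps2 and Rplp1) and 0 fell, with a median of 0.11. The shares higher were 83.3% of complex I subunits and 4.76% of cytosolic ribosomal protein genes, against 13% of all genes. DESeq2 called 7 higher and 1 lower, and at an unadjusted p under 0.05 edgeR had 16 higher and 1 lower. For complex I subunits, tRNA charging, translation factors and mitoribosomal proteins under other symbols the 0 lower calls were also 0 with DESeq2, with limma-voom and at an unadjusted p under 0.05. Cytosolic ribosomal protein genes have many near-identical pseudogenes, and the counting could split their reads. No test of the lists against each other was made.

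Factors known to regulate nuclear genes for mitochondrial proteins gave 1 call in each direction among 10 tested. That is 10% each way, against 13% of all genes higher and 13.2% lower. Gabpa, the DNA-binding subunit of the ETS factor named above, stood at 48.7, 52.0 and 58.4 CPM in rhodamine-positive sorts and 37.7, 42.0 and 56.7 CPM in rhodamine-negative sorts (0.27 ± 0.09, 6 of 6 mice, adjusted p = 0.0454, edgeR). DESeq2 called 0 of the 10 higher and limma-voom 1. Esrra, a nuclear receptor, stood at 11.2, 15.3 and 17.04 CPM in rhodamine-positive sorts and 14.9, 19.6 and 25.9 CPM in rhodamine-negative sorts, and fell by 0.45 on the log2 scale (SE 0.12, adjusted p = 0.0199, edgeR). Nrf1 (-0.13 ± 0.10), Yy1 (-0.18 ± 0.15) and Myc (-0.10 ± 0.13) did not pass. The co-activator Ppargc1a was too low to be tested, with 0 to 0.187 CPM in rhodamine-positive sorts and 0 to 0.350 CPM in rhodamine-negative sorts.

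**Figure D5:**
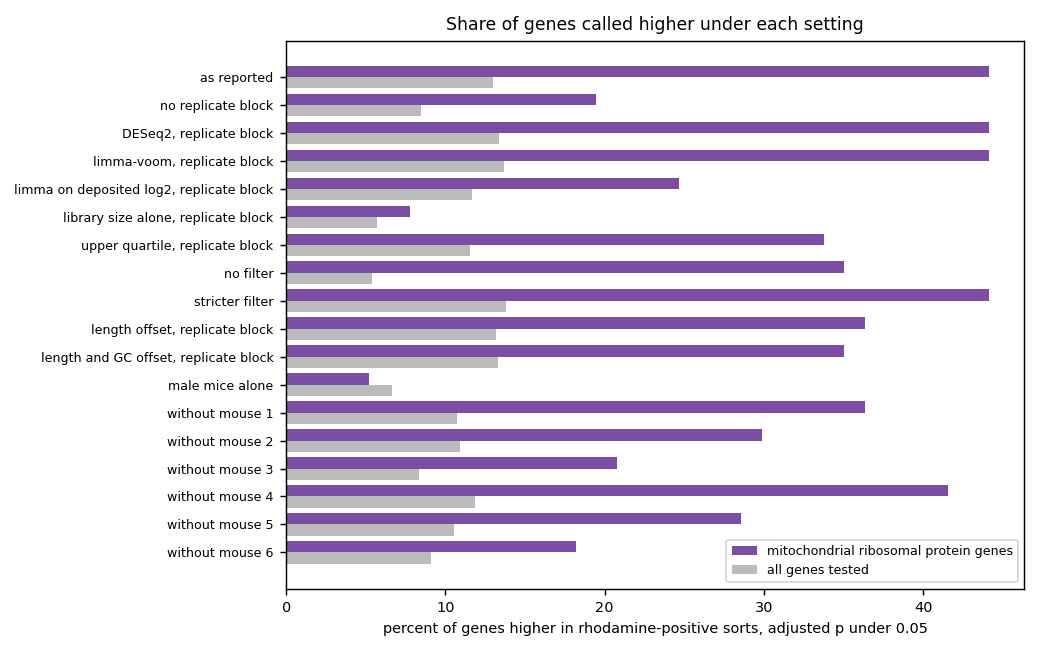
Percent of genes called higher in rhodamine-positive sorts at an adjusted p under 0.05 (horizontal axis, linear from 0) among the members tested and among all genes tested, for the reported setting and 17 alternatives. The members' share is 44.2% as reported and 5.19% in the male mice alone, the setting in which it lies below the share of all genes (6.64%).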

How the data were processed

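Per the labels, polyA RNA of 12 sorts was read on an Illumina HiSeq instrument. The submitters' processing notes name build mm10 and the tools edgeR, limma, featureCounts 1.4.4, HISAT2 2.1.0, cutadapt and bcl2fastq 2.17; parameters and strand setting are not given in the sources used here. The authors deposited raw counts per gene, used as they stand, and a log2 table of 10605 genes, which the authors normalized and which served as an alternative.

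Genes were filtered with filterByExpr (minimum count 10, minimum total 15), which left 15014 of 54532 genes with 99.8% of counts. Fold changes and p-values come from glmQLFit and glmQLFTest (edgeR 4.0.16, R 4.3.3) with TMM factors and a term for each mouse, adjusted by the Benjamini-Hochberg method. SE is the absolute log2 fold change over the square root of F. Paired log2 differences used a prior count of 2. DESeq2 1.42.0 and limma 3.58.1 served as alternatives. On simulated counts for this comparison (15014 genes), 14% of 100 genes changed by 0.5 in log2 and 95% of 100 changed by 1 were recovered, with 2 false calls among 111. The spread of those counts was set by hand and not estimated from these libraries.

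The mouse was a block because both sorts came from the same animal, per the series' design text. After subtracting the group means, r between the sorts of the same mouse was 0.226, 0.207, 0.289, 0.0775, 0.302 and 0.450 in mice 1 to 6. The highest r with the opposite sort of another mouse was 0.185, 0.187, 0.185, 0.187, 0.148 and 0.148. In mouse 4 that was above the value within the mouse, so its pairing rests on the labels. Replicates are separate mice. No pair of libraries of a group agreed within sampling noise.

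Gene positions, exon lengths and overlaps come from GENCODE vM21 (GRCm38, the build called mm10), and promoters from RefSeq on GRCm38.p6. Named members are the 10 with the largest increase among those that passed, the 4 highest by CPM, the 4 highest per kilobase, the 4 with the smallest change and those that failed the filter; other lists give up to 3 genes with the smallest p, or all that passed. Values of 2 genes of those lists are not reported here. Further members were named after their values were seen, to cover the roles in the ribosome. Members and lists were chosen with earlier results of these data known.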

Additional observations from a re-analysis of the deposited data

How the results depend on the processing

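The number of members higher was 34 as reported and stayed within 1.5 times of that with DESeq2 and limma-voom (34 each), the stricter filter (34), no filter (27), upper-quartile scaling (26) and offsets for exon length (28) or length and GC (27). With no replicate block it was 15, in limma on the deposited log2 values 19, with library size alone 6 and in male mice alone 4; the cause was not tested, though the last has fewer samples. Leaving out 1 mouse at a time gave 14 to 32. The number lower was 0 and the member median above 0 (0.14 to 0.33) under all 17 alternatives, and no member that rose turned its direction. Of the 34, 13 passed under at least 14 alternatives and 11 under fewer than 8. Members near 0 turned negative with library size alone: Mrpl32 -0.051, Mrpl21 -0.062, Mrpl50 -0.073, Mrpl52 -0.077, Mrpl48 -0.078, Mrpl30 -0.079, Mrps35 -0.079, Mrps25 -0.079, Mrpl1 -0.079, Mrps9 -0.12 and Mrpl24 -0.15. Mrpl24 was also -0.022 on the deposited log2 values, -0.0037 with upper-quartile scaling, -0.030 and -0.047 with the length and the length and GC offsets, -0.074 in males and -0.027 to 0.049 without 1 mouse. Mrpl52 was -0.026 with the length and GC offset and -0.00038 in males, Mrpl21 -0.061 and Mrpl50 -0.103 in males, and Mrpl32 ranged from -0.0038 to 0.18 without 1 mouse. mt-Rnr2 was 0.042 with the length and GC offset and -0.13 to 0.14 without 1 mouse (-0.03 as reported). Small changes are found in part: in a simulation at the depth and sample number of these libraries 14% of genes changed by 0.5 were recovered. Its spread between libraries was set by hand, and fewer genes were changed than were called here, so 14% is not the recovery in these data. Other depths were not simulated, and a member that did not pass is not shown to be unchanged.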

Other observations

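Across the 77 members, larger log2 fold changes went with higher mean CPM (r = 0.36, rho = 0.35) and with shorter exon length (r = -0.38, rho = -0.35); r was 0.27 with GC content. These are descriptions across genes of the same 12 libraries, and genes are not independent replicates. The members are short, with a median exon length of 2533 bases against 3806 over all genes tested.

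By structural name, 20 of 46 members tested with the prefix u or b, for proteins shared with the bacterial ribosome, rose (43.5%, median log2 fold change 0.30). With the prefix m, 14 of 31 did (45.2%, median 0.28), and among all genes tested 13% were higher. Mrps36, kept apart in the counts by subunit, is among the 14 under its former name mS36. In mouse 1 the small-subunit members had a median log2 difference of 0.16 and the large-subunit members 0.05, while in mouse 6 these were 0.35 and 0.43; no test of the subunits against each other was made.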
